A study of Homo sapiens with 6 samples.

Results

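Rows for 10 genes of the TEAD transcription factor family and the Hippo pathway core were taken from the deposited table of 58825 genes by gene name, using the identifier with the highest mean FPKM where a name had several. The genes were TEAD1, TEAD2, TEAD3, TEAD4, YAP1, WWTR1 (the gene of the TAZ protein), VGLL4, LATS1, LATS2 and AMOTL2. Each name had 1 identifier, and all 10 were among the 17774 genes whose FPKM, averaged over the 6 samples, reached 0.1 and which were tested. The samples were RNA-seq libraries of PANC-1, a human cell line from a pancreatic carcinoma. In the MA PANC-1 group 3 samples were treated with 40 μM maslinic acid (MA), an olive triterpenoid, for 24 h, and in the PANC-1 group 3 samples were labelled untreated (0 μM). The study's methods name DMSO as the vehicle in its cell treatments, and whether these controls received it is not said in the labels. All samples come from a single cell line. The methods of the study call the samples of a group biological replicates, without saying how the cultures were separated.

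In the Hippo pathway, the MST kinases STK3 and STK4 activate LATS1 and LATS2, and the LATS kinases phosphorylate the coactivators YAP1 and TAZ, which are then held in the cytoplasm or degraded. Unphosphorylated YAP1 and TAZ enter the nucleus and bind TEAD factors, which carry the DNA-binding domain and recruit them to target genes. VGLL4 competes with YAP1 for TEAD. AMOTL2, an angiomotin of cell junctions, binds YAP1 and activates LATS kinases, and together with LATS2 it is also a target gene of the pathway. In pancreatic carcinoma YAP1 is known for promoting the growth of tumour cells. The values below are RNA levels, and neither the phosphorylation nor the location of YAP1 was measured in these files.

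TEAD factors recognise the letters GGAATG, or CATTCC on the opposite strand. Stretches of 30 bases around these letters are shown for 2 genes of the core and 3 target genes. Every stretch shown holds the motif, so its presence here cannot tell genes that passed the test described below from those that did not. The stretches are given 5′ to 3′ on the strand of the gene, with the motif in capitals, from the RefSeq promoter windows of build GRCh38.p14.
AMOTL2: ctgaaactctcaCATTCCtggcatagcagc
YAP1: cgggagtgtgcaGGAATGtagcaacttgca
CCN2: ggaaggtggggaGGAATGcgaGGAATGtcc
TGFB2: tgtcagggcgcaCATTCCacctccttcctc
PTPN14: cctcccgggccgCATTCCtccccgcccccg

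The AMOTL2 stretch is chr3:134374499-134374528 (minus strand), with its motif beginning 69 bases before the RefSeq start, and in GENCODE 29 all 30 of its bases lie in an exon. The YAP1 stretch is chr11:102110273-102110302 (plus strand), 162 bases before the start, and it likewise lies in an exon. The CCN2 stretch, chr6:131951459-131951488 (minus strand), holds the motif at 104 and 95 bases before the start, and a further copy lies at 169 bases. The TGFB2 stretch is chr1:218345139-218345168 (plus strand) and the PTPN14 stretch chr1:214551785-214551814 (minus strand), at 185 and 200 bases before the start. The stretches of these 3 target genes held no exon base on the strand of the gene.

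The total of estimated counts was 56978375, 63984133 and 58181114 for the MA PANC-1 samples and 70275355, 65607669 and 59422939 for the PANC-1 samples, each in the order of samples 1, 2 and 3. In a principal component analysis of log2 CPM, whose leading component held 26.7% of the variance, MA PANC-1 2 stood apart at −74.4. On this component the other MA PANC-1 samples were at −30.0 and 16.7 and the PANC-1 samples between 18.1 and 44.9. For the TEAD genes, the coactivators and LATS1, log2 fold changes without MA PANC-1 2 are therefore also given. The cells were checked against markers. KRT8 and KRT18, keratins of simple epithelia, had 212.8 and 324.7 FPKM on average in PANC-1 cells, and VIM, the mesenchymal filament vimentin, had 665.4 FPKM. Of the ductal markers, KRT7 had 2.03 FPKM, and KRT19 and EPCAM were close to 0, at 0.0199 and 0.0930 FPKM. Among 10 genes of acinar, endocrine, blood, endothelial and fibroblast cells, 9 stayed under a mean of 0.1 FPKM, and the most abundant was LUM at 0.577 FPKM in PANC-1 cells.

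TEAD4 was the most abundant gene of the set in PANC-1 cells on the FPKM scale, which is per length of the gene. It was followed by YAP1 and WWTR1, and the ranges of these 3 genes did not overlap with each other or with those of the other genes. VGLL4, AMOTL2 and TEAD2 came next with overlapping ranges, and TEAD2 also overlapped with LATS2. TEAD3 lay below LATS2 without overlap. LATS1 and TEAD1 were the lowest, with ranges of 2.65 to 2.83 and 2.03 to 2.76 FPKM that overlapped. TEAD4 ranked at the 92.9th percentile of all genes tested by mean FPKM and TEAD1 at the 43.8th. Long stretches of identical sequence, from which reads could be assigned to the wrong family member, were rare. Of the 31-base words in the TEAD1 transcripts of GENCODE 29, 0 of 10341 were found in a transcript of another TEAD gene, against 1.08% for TEAD4, the highest share in the family.

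TEAD1 and WWTR1 fell and AMOTL2 rose after MA. Here and below, rose and fell are used for genes with an edgeR quasi-likelihood p-value of less than 0.05 before adjustment. These were 3 of the 10 genes (30.0%), against 11.2% of all genes tested. The rise was 1 gene of 10, against 5.37% of all genes, and the falls were 2, against 5.86%. The study also asked for a change of 2-fold in either direction, which 1.92% of all genes passed. Of the 10, only TEAD1 did so, 1 lower gene against 1.25% and 0 higher genes against 0.675% of all genes. None of the 10 had an adjusted p-value under 0.05 in edgeR, as did 0.0394% of all genes (7 genes). DESeq2 gave 2 such genes, TEAD1 and WWTR1, among 263 of all genes, and limma on log2 FPKM gave none of the 10. The groups did not overlap in 4 of the 10 genes, against 19.9% of all genes. TEAD1, WWTR1 and LATS1 were lower in all MA PANC-1 samples, against 11.1% of all genes, and AMOTL2 was higher in all of them, against 8.79%. The median log2 fold change of the 10 genes was 0.04, and that of all genes tested was −0.002. With each sample left out, the median of the 10 genes ran from −0.01 to 0.07, and it was below 0 only without MA PANC-1 2. In bulk RNA of this kind, fewer cells with a transcript and less of it per cell cannot be told apart.

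**Figure D1:**
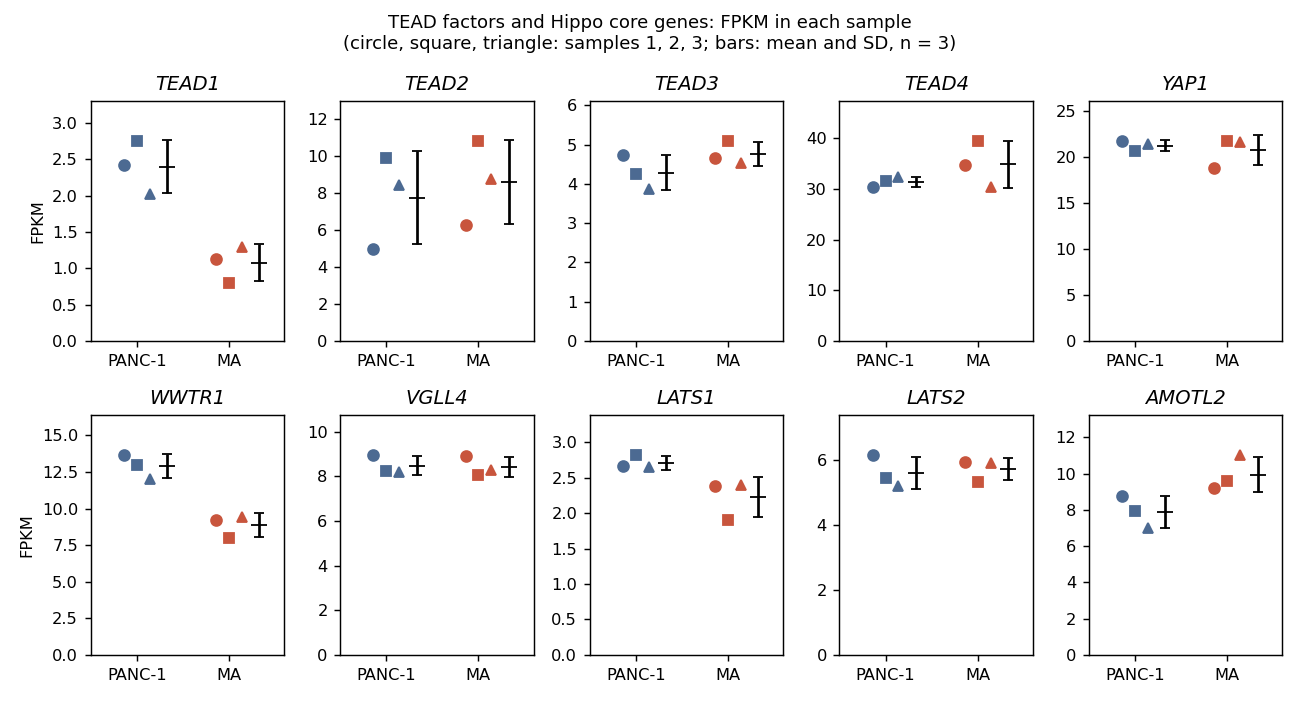
FPKM (vertical axes, starting at 0, with a scale of their own for each gene) of the 10 genes in both groups, each point a sample and the bars the mean and SD of 3 samples. The groups are apart in TEAD1, WWTR1, LATS1 and AMOTL2 and overlap in the other 6 genes.

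TEAD1 (ENSG00000187079, chromosome 11, 12674421 to 12944737), a DNA-binding partner of YAP1 and TAZ, had 2.43, 2.76 and 2.03 FPKM in PANC-1 1, 2 and 3. It had 1.14, 0.801 and 1.298 FPKM in MA PANC-1 1, 2 and 3. All MA PANC-1 samples were below all PANC-1 samples, and MA PANC-1 2 was the lowest. The estimated counts behind these values were 657 to 969 in the MA PANC-1 and 1536 to 2316 in the PANC-1 samples. The log2 fold change of TEAD1 was −1.13 (standard error 0.20, 95% interval −1.58 to −0.67, adjusted p = 0.211 from edgeR), a fall to 0.458 of its level in PANC-1 cells. By edgeR's p-value before adjustment, 6.06e-04, it was number 51 of 17774 genes. An exact two-sided permutation test of the FPKM gave p = 0.1, the smallest that 3 samples against 3 allow. The log2 fold change was −0.98 without MA PANC-1 2, short of 2-fold, and −0.71 in a limma fit to log2(FPKM + 1), both still past the threshold before adjustment. The part of MA PANC-1 2 in the low value was not tested beyond the fit without it. In DESeq2 the adjusted p-value was 3.69e-05.

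The other TEAD genes had higher means after MA, with overlapping groups. TEAD4 (ENSG00000197905, chromosome 12, 2959330 to 3040676), which carries most TEAD RNA in these cells, had 30.3, 31.6 and 32.3 FPKM in PANC-1 and 34.7, 39.4 and 30.2 FPKM in MA PANC-1 cells. MA PANC-1 2 was the highest and MA PANC-1 3 the lowest of all 6 samples. Its log2 fold change was 0.19 (standard error 0.14, 95% interval −0.13 to 0.51, adjusted p = 0.597 from edgeR). Its edgeR p-value before adjustment was 0.199. Leaving out MA PANC-1 2, the highest sample, gave a log2 fold change of 0.05 with a p-value of 0.609, and leaving out MA PANC-1 3, the lowest, gave 0.30 with a p-value of 0.0383. TEAD3 (ENSG00000007866, chromosome 6, 35473597 to 35497079) had 4.75, 4.25 and 3.87 FPKM in PANC-1 and 4.66, 5.09 and 4.52 FPKM in MA PANC-1 cells, and its log2 fold change was 0.19 (95% interval −0.16 to 0.54), or 0.10 without MA PANC-1 2. TEAD2 (ENSG00000074219, chromosome 19, 49340595 to 49362457) varied most among the 4, from 4.95 to 9.85 FPKM in PANC-1 and from 6.25 to 10.8 FPKM in MA PANC-1 cells. Sample 1 was the lowest in both groups. The 95% interval of its log2 fold change, −0.52 to 0.92, was the widest of the 10 genes, and the sign turned to −0.05 when MA PANC-1 2 was left out and to −0.04 when PANC-1 1 was.

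Added together on the FPKM scale, the 4 TEAD genes had 45.8 ± 3.08 FPKM (SD, n = 3) without MA and 49.2 ± 6.07 FPKM (SD, n = 3) with it, and the samples of the groups overlapped. TEAD1 made up 5.72%, 5.69% and 4.35% of this sum in PANC-1 1, 2 and 3 and 2.43%, 1.43% and 2.90% in MA PANC-1 1, 2 and 3, and the groups did not overlap. The TEAD4 share was 68.6% ± 3.18 (SD, n = 3) in PANC-1 and 70.7% ± 3.37 (SD, n = 3) in MA PANC-1 cells, with overlapping samples. TEAD4 thus had 11.5 to 15.9 times the FPKM of TEAD1 in the PANC-1 samples and 23.3 to 49.2 times in the MA PANC-1 samples.

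Of the coactivators, WWTR1 was lower in every MA PANC-1 sample, while the groups overlapped in YAP1. WWTR1 (ENSG00000018408, chromosome 3, 149517235 to 149736714) had 13.7, 12.9 and 12.1 FPKM in PANC-1 1, 2 and 3 and 9.25, 7.96 and 9.44 FPKM in MA PANC-1 1, 2 and 3. The highest MA PANC-1 value stayed below the lowest PANC-1 value. Its fitted log2 fold change was −0.50, 0.706 of the untreated level (log2 standard error 0.09, 95% interval −0.72 to −0.29, adjusted p = 0.222 from edgeR), with a p-value of 8.42e-04 before adjustment. Over the fits without 1 sample the log2 fold change was between −0.55 and −0.46, with −0.47 without MA PANC-1 2, and the adjusted p-value in DESeq2 was 0.00621. The exact permutation test gave p = 0.1.

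YAP1 (ENSG00000137693, chromosome 11, 102110447 to 102233424) had 21.7, 20.6 and 21.4 FPKM in PANC-1 and 18.8, 21.7 and 21.6 FPKM in MA PANC-1 cells. The groups overlapped, with MA PANC-1 1 the lowest sample. The log2 fold change was 0.01 (standard error 0.10, adjusted p = 0.989 from edgeR), and its 95% interval of −0.23 to 0.24 leaves room for changes of that size in either direction. It was −0.07 without MA PANC-1 2. WWTR1 made up 37.8% ± 1.49 (SD, n = 3) of the summed FPKM of the coactivators in PANC-1 and 30.1% ± 3.08 (SD, n = 3) in MA PANC-1 cells. The sum itself was 33.4 to 35.4 FPKM without MA and 28.0 to 31.1 FPKM with it, and the groups did not overlap.

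**Figure D2:**
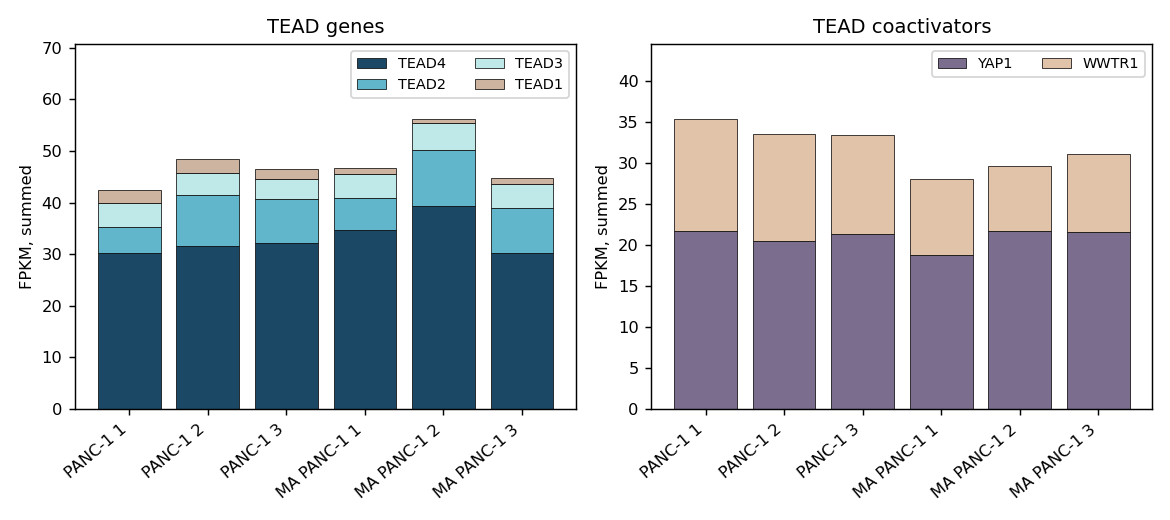
FPKM of the TEAD genes (left) and of the TEAD coactivators (right) in each of the 6 samples, stacked so that the height of a bar is their sum. TEAD4 is the tallest segment of every TEAD bar, the TEAD1 segment is thinner in the MA PANC-1 samples, and so is the WWTR1 segment of the coactivator bars.

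None of the inhibitory genes VGLL4, LATS1 and LATS2 passed the test. VGLL4 (ENSG00000144560, chromosome 3, 11556069 to 11720746) had 8.96, 8.25 and 8.19 FPKM in PANC-1 and 8.91, 8.03 and 8.29 FPKM in MA PANC-1 cells, and the 95% interval of its log2 fold change was −0.19 to 0.24. ATG7, with a mean of 7.49 FPKM, overlaps VGLL4 on the opposite strand, and the sources do not say whether the reads were counted by strand. LATS2 (ENSG00000150457, chromosome 13, 20973036 to 21061586) had 6.16, 5.45 and 5.21 FPKM in PANC-1 and 5.93, 5.32 and 5.90 FPKM in MA PANC-1 cells, with an interval of −0.19 to 0.31. The groups overlapped in both genes. LATS1 (ENSG00000131023, chromosome 6, 149658153 to 149718101) had 2.66, 2.83 and 2.65 FPKM in PANC-1 and 2.39, 1.903 and 2.40 FPKM in MA PANC-1 cells. Its groups did not overlap, but the log2 fold change of −0.25 (95% interval −0.53 to 0.02, adjusted p = 0.468 from edgeR) missed the threshold, with a p-value of 0.0676 before adjustment. It was −0.18 without MA PANC-1 2. LATS2 had 1.93 to 2.31 times the FPKM of LATS1 in the PANC-1 samples and 2.46 to 2.79 times in the MA PANC-1 samples.

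AMOTL2 (ENSG00000114019, chromosome 3, 134355874 to 134374594) was the only gene of the 10 that was higher in every MA PANC-1 sample, with 9.20, 9.57 and 11.1 FPKM in MA PANC-1 1, 2 and 3 against 8.77, 7.96 and 7.00 FPKM in PANC-1 1, 2 and 3. The groups lay close together, as MA PANC-1 1 was 9.20 and PANC-1 1 was 8.77 FPKM. AMOTL2 rose 1.29-fold (log2 standard error 0.12, 95% interval 0.08 to 0.65, adjusted p = 0.426 from edgeR), with a p-value of 0.0201 before adjustment. This p-value was 0.0557 without MA PANC-1 3, 0.0515 without PANC-1 2 and 0.0722 without PANC-1 3 in the same edgeR test. Its relatives did not rise with it. AMOTL1 had 5.83, 5.73 and 5.39 FPKM in MA PANC-1 and 7.04, 7.10 and 6.23 FPKM in PANC-1 cells, lower in every MA PANC-1 sample (adjusted p = 0.466 in edgeR), and AMOT was at 0.425 to 0.542 FPKM in all samples.

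The rest of the pathway was described with lists of the other vestigial-like genes, core kinases and scaffolds, and angiomotins, and of upstream regulators. Others held the STRIPAK phosphatase complex that acts on the MST kinases, and the 14-3-3 proteins, casein kinases and F-box proteins that retain or degrade YAP1. These lists, like the 10 genes and the target list below, were chosen with earlier results of these data known. Of 68 tested genes, 9 rose and 8 fell after MA, together 25.0% against 11.2% of all genes tested, and the adjusted p-values from edgeR of all 17 were above 0.05. Without MA PANC-1 1 the count of 17 was 5, a share of 7.35% against 7.93% of all genes in that fit. Without PANC-1 1 it was 6 (8.82% against 6.63% of all genes), without PANC-1 2 it was 8 (11.8% against 7.72%), and without PANC-1 3 it was 7 (10.3% against 6.76%). The median log2 fold change of the 68 genes was −0.05, and it ran from −0.08 to −0.03 with each sample left out.

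**Figure D3:**
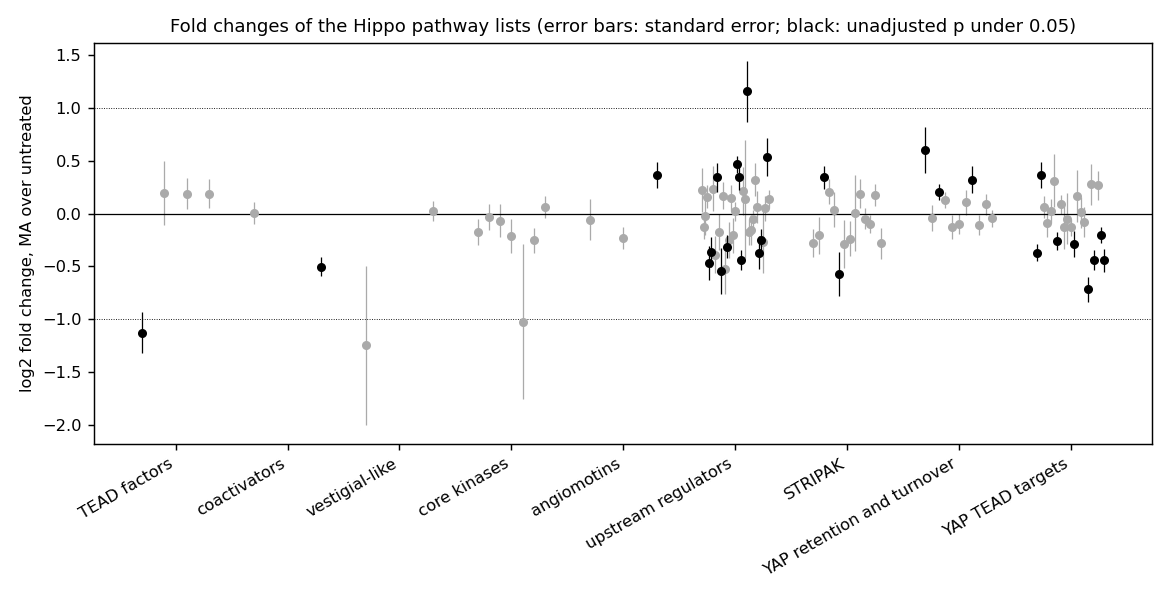
Log2 fold changes (vertical axis, MA PANC-1 over PANC-1) of the tested genes in each list, each point a gene with its standard error, black where edgeR's p-value before adjustment is below 0.05 and dotted lines at 2-fold. TEAD1 is the black point below the lower line and RASSF5 the black point above the upper one.

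In the core kinase list, all 5 genes besides LATS1 and LATS2 had log2 fold changes below 0, as did 8929 of 17774 genes tested. None of the 5 passed the test. MOB1A, a LATS cofactor and the most abundant of them, had 28.2, 26.1 and 32.9 FPKM in PANC-1 and 25.4, 18.6 and 30.0 FPKM in MA PANC-1 cells, with MA PANC-1 2 the lowest sample. The MST scaffold SAV1 had 3.97 to 4.35 FPKM in PANC-1 and 4.16, 2.94 and 4.61 FPKM in MA PANC-1 1, 2 and 3. STK4 had 2.19 to 2.36 FPKM in PANC-1 and 2.26, 1.84 and 2.48 FPKM in MA PANC-1 1, 2 and 3. MA PANC-1 2 was the lowest and MA PANC-1 3 the highest sample in SAV1 and STK4, whose log2 fold changes were −0.07 and −0.03. The groups overlapped in all 3 genes. MOB1B, named after its values were seen, had 1.91 to 2.30 FPKM in PANC-1 cells and 1.10, 0.122 and 1.84 FPKM in MA PANC-1 1, 2 and 3, with MA PANC-1 2 far below the other samples. The vestigial-like gene VGLL3 had a similar low value in that sample, at 0.0207 FPKM against 0.330 and 0.311 FPKM in MA PANC-1 1 and 3 and 0.469 to 0.560 FPKM in untreated cells. VGLL1 and VGLL2 were below the filter and were not tested.

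Among 35 tested upstream regulators, 5 rose and 7 fell after MA, against 5.37% and 5.86% of all genes. AJUBA, a LIM protein that inhibits LATS kinases, had 23.1, 20.1 and 22.2 FPKM in MA PANC-1 and 16.0, 16.4 and 16.0 FPKM in PANC-1 cells. The groups were well apart, and AJUBA rose 1.38-fold (log2 standard error 0.08, adjusted p = 0.208 by edgeR). WTIP, a LIM protein of the same family, rose 1.27-fold, whereas LIMD1, a further relative, had a log2 fold change of 0.02 (adjusted p = 0.943 in edgeR). RASSF5, which binds MST kinases, rose 2.23-fold but from a low level, 0.158 to 0.297 FPKM in PANC-1 and 0.463 to 0.660 FPKM in MA PANC-1 cells. The kinase STK24 rose 1.45-fold, with overlapping groups.

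Of the upstream regulators that fell, PTPN14, a phosphatase that binds YAP1, had the smallest p-value, with 4.96, 4.46 and 4.28 FPKM in MA PANC-1 against 6.22, 6.17 and 6.62 FPKM in PANC-1 cells. Its log2 fold change was −0.44 (standard error 0.09, adjusted p = 0.346 from edgeR), and its groups did not overlap. The LATS-activating kinase MAP4K4, the FERM protein FRMD6 and the cadherin FAT4 fell to 0.806, 0.724 and 0.778 of their untreated levels. RHOA, the most abundant gene of this list, was higher in every MA PANC-1 sample, at 212 to 227 against 203 to 210 FPKM, but did not pass the test (adjusted p = 0.545 in edgeR).

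In the STRIPAK list, STRN4 rose 1.27-fold and SLMAP, the subunit that recruits MST kinases, fell to 0.672 of its level with overlapping groups. These were 2 of 14 tested genes, 14.3% against 11.2% of all genes. The phosphatase subunits PPP2CA, PPP2R1A and PPP2CB, the most abundant genes of this list, had log2 fold changes of −0.10, 0.19 and 0.17 and did not pass the test. Among the 11 genes that act on YAP1 itself, YWHAB and YWHAG rose 1.52-fold and 1.15-fold, and CSNK1D rose by 0.32 on the log2 scale. These 3 genes were 27.3% of the list, against 11.2% of all genes. In the MA PANC-1 samples YWHAB was at 43.0 to 49.7 FPKM, against 43.9, 25.8 and 24.6 FPKM in PANC-1 1, 2 and 3, so PANC-1 1 lay within the MA PANC-1 range. The most abundant 14-3-3 gene, YWHAQ, had 181 to 216 FPKM in PANC-1 and 161 to 201 FPKM in MA PANC-1 cells, with overlap. YWHAE and SFN, next in abundance, had log2 fold changes of −0.04 and 0.11 and did not pass the test.

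The readout of TEAD, YAP1 and TAZ was described with 22 genes widely used as their targets, of which 21 were tested. After MA 7 fell and 1 rose, 38.1% against 11.2% of all genes tested. None of the list had an adjusted p-value under 0.05 in edgeR and none reached a 2-fold change. The other 13 genes did not pass, and the median log2 fold change of the list was −0.08. With each sample left out this median ran from −0.13 to 0.01, and it was above 0 only without PANC-1 2. The count of 8 was 5 without PANC-1 2 (23.8% against 7.72% of all genes in that fit), 4 without PANC-1 3 (19.0% against 6.76%) and 9 without MA PANC-1 2 (42.9% against 10.3%).

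NT5E, which encodes the ecto-nucleotidase CD73, showed the largest of these falls. It had 54.3, 54.8 and 52.3 FPKM in PANC-1 and 30.8, 26.8 and 38.5 FPKM in MA PANC-1 cells, so that 0.608 of the untreated level remained (log2 standard error 0.12, adjusted p = 0.196 by edgeR). TGFB2, a TGF-beta ligand, had 14.6, 14.4 and 14.9 FPKM in PANC-1 and 10.3, 9.09 and 12.2 FPKM in MA PANC-1 cells, and its log2 fold change was −0.44 (standard error 0.11, adjusted p = 0.375 from edgeR). MYOF, a membrane repair protein, fell to 0.774 of its level, with 22.5 to 26.6 FPKM after MA and 31.2 to 33.5 FPKM without it. The groups did not overlap in any of these 3 genes. PTPN14, described among the regulators, is also in this list, and ASAP1, FJX1 and DOCK5 fell to 0.836, 0.820 and 0.869 of their levels in PANC-1 cells. AMOTL2 was the gene that rose.

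CCN1, CCN2, AXL and ANKRD1, members of the same list that are named here after their values were seen, did not pass the test. CCN2, whose promoter stretch is shown above, had 33.9, 40.6 and 32.1 FPKM in PANC-1 and 34.9, 27.9 and 35.1 FPKM in MA PANC-1 cells (log2 fold change −0.09, adjusted p = 0.795 in edgeR). CCN1 was the most abundant target, at 115, 134 and 106 FPKM in PANC-1 and 119, 104 and 130 FPKM in MA PANC-1 cells. The groups overlapped in both, and MA PANC-1 2 was the lowest sample in each. AXL, a receptor kinase, was at 61.8 to 69.7 FPKM in all samples. ANKRD1 had 7.78 to 9.80 FPKM in PANC-1 and 13.0, 6.72 and 13.7 FPKM in MA PANC-1 1, 2 and 3, so that MA PANC-1 2 lay below and the other MA PANC-1 samples above the PANC-1 range.

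**Figure D4:**
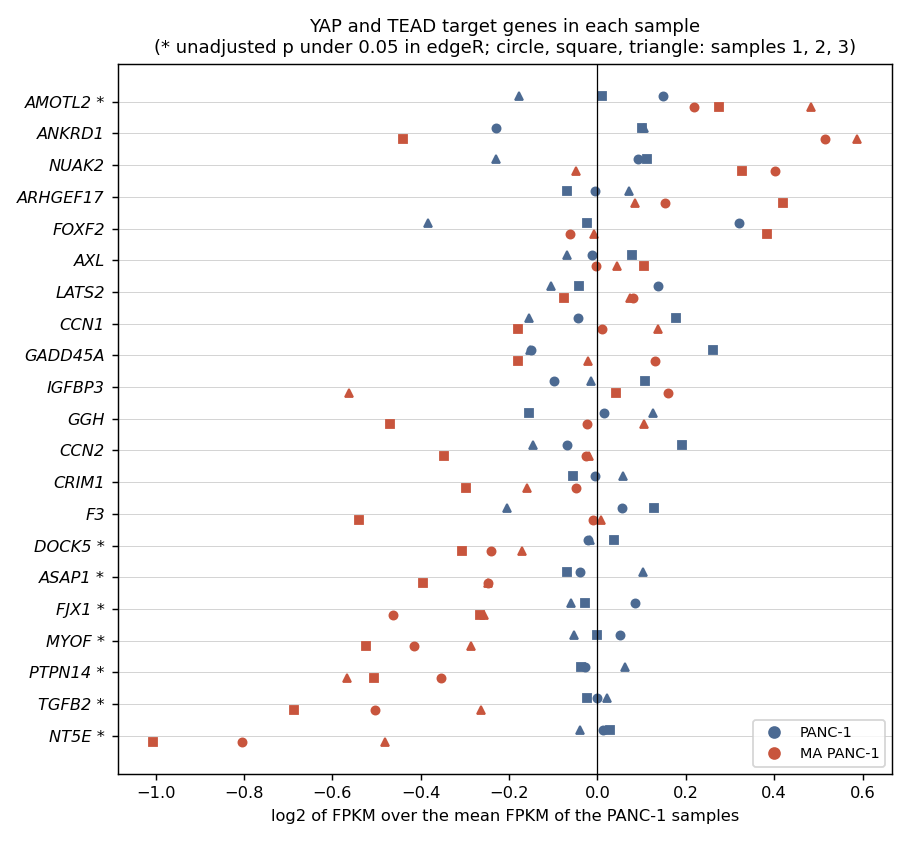
Level of the 21 tested target genes in each sample, as the log2 of its FPKM over the mean FPKM of the PANC-1 samples (horizontal axis), ordered by fold change, with a star where edgeR's p-value before adjustment is below 0.05. The MA PANC-1 points of NT5E, TGFB2, PTPN14, MYOF, FJX1, ASAP1 and DOCK5 lie left of all PANC-1 points, those of AMOTL2 and ARHGEF17 lie right of them, and CCN1, CCN2 and AXL overlap.

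The letters GGAATG or CATTCC occurred within 250 bases before a RefSeq start in 8 of the 15 target genes with a promoter window (53.3%) and in 3902 of 27305 genes overall (14.3%). Of the 10 core genes, 8 had a window, and AMOTL2 and YAP1 were those with the motif. Of the target genes with a motif, PTPN14 and TGFB2 fell, AMOTL2 rose, and CCN2, ANKRD1, AXL, FOXF2 and NUAK2 did not pass the test. NT5E, MYOF and FJX1, which fell, had a window without these letters. A match or its lack describes the window and not the binding of a factor.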

How the data were processed

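PolyA RNA of 6 PANC-1 samples, grouped by treatment from their titles, was sequenced by the authors as dUTP paired-end libraries. The processing notes of the submitters name cutadapt 1.9, HISAT2 2.0.4 and StringTie 1.3.4d, without roles, and the genome build is not given in the sources used here. Of 58597 gene identifiers also in GENCODE 29 (GRCh38), 58513 overlapped the position there on the same strand. The authors deposited an FPKM value per gene and sample, normalized by them per length and depth, with 0.0001 listed for a gene at 0. They also deposited an estimated count, a whole number and not normalized. The totals exceed the reads that were sequenced, so precision rests on the replicates, and halved counts were an alternative.

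The 17774 genes that averaged 0.1 FPKM or more were tested with edgeR 4.0.16 (TMM, quasi-likelihood) in R 4.3.3, with Benjamini-Hochberg adjustment over all of them. The standard error was the log2 fold change divided by the root of F. Alternatives used DESeq2 1.42.0, limma 3.58.1 on log2(FPKM + pseudocount), other filters, size factors, left-out samples, summed overlapping genes and the replicate number as a block. The fits were also run on simulated data, and the outcome is not given here. The 10 genes, the lists and the tests were chosen with earlier results of these data known. Named were the 10 genes and, per other pathway list, up to 8 genes, first those with an unadjusted p-value under 0.05 and then the 3 most abundant. RHOA, LIMD1, STK4, MOB1B, CCN1, CCN2, AXL, ANKRD1, FOXF2, NUAK2, ARHGEF17 and the cell markers lie outside this rule and were chosen after their values were seen. PTPN21 was not analysed here.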

Additional observations from a re-analysis of the deposited data

How the results depend on the processing

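The falls of TEAD1 and WWTR1 kept their direction and an unadjusted p-value under 0.05 in all 17 alternatives each, with log2 fold changes from −1.26 to −0.71 and from −0.55 to −0.46. AMOTL2 kept both in 14 of 17, the exceptions being the fits without MA PANC-1 3, PANC-1 2 or PANC-1 3. The count of core genes past p and fold was 0 with a pseudocount of 1 in limma, and 0 without MA PANC-1 2 and 1 without any other sample. The count of core genes with an adjusted p-value under 0.05 was 2 in DESeq2. For all genes, that count was 7, and it was 263 in DESeq2, 12 at a mean FPKM of at least 1, 0 with the replicate number as a block, and 3 to 24 with each sample left out. Genes past p and fold numbered 342, against 44 with a pseudocount of 1, 93 at a mean FPKM of at least 1, 569 without a filter and 326 to 534 with each sample left out. With each sample left out, 4 to 9 target genes and 5 to 21 other Hippo genes had an unadjusted p-value under 0.05, while the share of all genes ran from 6.63% to 18.1%. The 21 came from the fit without MA PANC-1 3, in which 30.9% of these genes and 18.1% of all genes passed. The cause was not tested. Deviations of same-numbered samples from their group means correlated at 0.03, 0.05 and 0.07 over genes. Those of samples with other numbers correlated at −0.048 to −0.001. Correlations this weak do not settle whether the replicate numbers pair the samples. With the replicate block the core genes past an unadjusted p-value of 0.05 were still 3 in number.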
